A study of Mus musculus with 6 samples.

Results

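The torsin family was examined in CNS monocytes of mice with EAE through 7 genes, the 5 torsins Tor1a, Tor1b, Tor2a, Tor3a, and Tor4a and the 2 LAP1 cofactor genes Tor1aip1 and Tor1aip2, among the 54232 genes in the files. The family was chosen by the log2 fold changes and adjusted p-values of Tor3a and Tor1aip1 between the genotypes in these same libraries, so the values of these 2 genes are given as a description, without a test. All 7 genes passed the filter on low counts, together with 11254 genes in all. EAE models multiple sclerosis in mice, and cells without IFNAR1 cannot respond to type I IFNs such as IFN-β. Lethally irradiated GFP+ recipients were given marrow of WT (CD45.1) and Ifnar1-/- (CD45.2) donors in equal parts, entered EAE 6 to 7 weeks later, and all received 30000 IU of IFN-β daily. At disease peak, GFP-CD45+CD11b+Ly6ChiLy6G- cells of each donor type were sorted from the CNS, which gave 3 WT and 3 Ifnar1-/- libraries. Each genotype thus carried its own CD45 variant, no library came from mice without IFN-β, and the age of the mice and the number of mice behind a library were not given in the sources used here. There were 3 recipients, and cells of both genotypes were sorted from these same chimeras. Which library came from which mouse was not given, and the deposited files carry a further number per replicate that the labels do not explain. The p-values therefore measure the spread between these libraries, which may be technical.

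Torsins are AAA+ ATPases of the ER lumen and of the perinuclear space, which is continuous with it. They hydrolyze ATP poorly on their own and are switched on by the luminal domains of 2 membrane proteins, LAP1 (Tor1aip1), which sits in the inner nuclear membrane and binds lamins, and LULL1 (Tor1aip2), which sits in the ER. A mutation of human TOR1A causes early-onset dystonia, and TOR3A was first described as an interferon-responsive ATPase gene.

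The ATP-binding loop that places the torsins among the AAA+ proteins, the Walker A motif, is shown here by its codons, because it is what the 5 torsins share and the cofactors lack. The sequences were read from the GENCODE M21 coding sequences (GRCm38), 5′ to 3′, with the 8 codons of the motif in capitals. The motif spans codons 103 to 110 in Tor1a, 109 to 116 in Tor1b, 93 to 100 in Tor2a, 155 to 162 in Tor3a, and 189 to 196 in Tor4a.
Tor1a: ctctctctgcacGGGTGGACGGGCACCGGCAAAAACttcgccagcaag
Tor1b: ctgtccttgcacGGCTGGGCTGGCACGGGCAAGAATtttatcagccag
Tor2a: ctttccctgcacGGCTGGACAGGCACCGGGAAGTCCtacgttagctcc
Tor3a: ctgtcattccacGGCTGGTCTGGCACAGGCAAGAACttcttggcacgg
Tor4a: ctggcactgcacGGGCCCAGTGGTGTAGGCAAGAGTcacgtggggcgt

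The coding sequences run from 321 codons in Tor2a and 333 in Tor1a to 385 in Tor3a and 426 in Tor4a, and to 576 in Tor1aip1 and 502 in Tor1aip2. Translated and aligned end to end, Tor1a and Tor1b had 63.4% identical residues over the shorter protein. Tor3a was 40.8% identical to Tor1a, 41.1% to Tor1b, and 41.1% to Tor2a. Tor4a was the most distant torsin, with 27.3% identity to Tor1a and 28.6% to Tor3a. Pairs of a torsin and a cofactor ranged from 21.3% to 28.97% in the same alignment, so identity at this level does not set Tor4a apart from them. The cofactors were 40.2% identical to each other. The motif was not found in either of them. Reads that match more than 1 gene are split by RSEM, which leaves counts that are not whole. From 3.69% to 4.501% of all genes per library had such a count, and all 42 counts of the 7 genes in the 6 libraries were whole within 0.005. A count of 0 is whole too, and only 15998 to 16992 genes had a count in a library. The share among counted genes may therefore be higher.

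The 7 genes lie on 2 chromosomes (GENCODE M21, GRCm38). Tor3a (ENSMUSG00000060519.11, chromosome 1, 156653617 to 156674356, minus strand), Tor1aip1 (ENSMUSG00000026466.16, chromosome 1, 156004599 to 156036480, minus strand), and Tor1aip2 (ENSMUSG00000050565.16, chromosome 1, 156035403 to 156068861, plus strand) are 18.5, 17.8, and 17.9 Mb from Ptprc, the gene of CD45. Tor1a (ENSMUSG00000026849.18, 30960627 to 30967933, minus strand), Tor1b (ENSMUSG00000026848.14, 30952959 to 30959015, plus strand), Tor2a (ENSMUSG00000009563.16, 32757234 to 32762244, plus strand), and Tor4a (ENSMUSG00000059555.6, 25192966 to 25196886, minus strand) are on chromosome 2. Tor1a and Tor1b are neighbors, 1611 bases apart. Tor1aip1 and Tor1aip2 start head to head, their annotated ranges overlap by 1078 bases on opposite strands, and 699 exonic bases belong to both. Tor2a overlaps Ttc16 on the other strand, with 403 exonic bases in common. Whether reads were counted by strand is not given in the sources used here, so in these stretches reads of both strands may not have been told apart.

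Libraries held from 4531782 to 7321380 expected counts, and a torsin or cofactor gene had between 89 and 2104 counts in a library. Mitochondrial ribosomal RNA took from 12.3% to 17.6% of counts in WT and from 15.1% to 22.7% in Ifnar1-/- libraries. The targeted gene Ifnar1 gave 130 ± 20.97 normalized CPM in WT and 107 ± 4.73 in Ifnar1-/- monocytes (counts over library sizes adjusted by TMM, with SD and n = 3 each), which did not differ in the edgeR quasi-likelihood test (adjusted p = 0.360), so counts of the whole gene did not check the labels. Of 12 genes known to be induced by type I IFNs, 10 were called higher in WT and 0 lower, and on the log2 CPM scale they averaged 7.85, 7.16, and 7.21 across WT against 3.86, 4.08, and 3.69 across Ifnar1-/- libraries. All 7 monocyte markers were present in every library, and 2 of them separated the groups in opposite directions. Ly6c2, a gene of the Ly6C used for sorting, was itself called higher in WT (from 640 to 788 against from 177 to 337 normalized CPM). Ccr2, a chemokine receptor gene of these cells, was not called by edgeR and lay lower in WT (from 587 to 694 against from 794 to 1269). All 5 tested of 7 T cell markers had values higher in WT, with summed levels of the 7 from 17.6 to 41.8 normalized CPM in WT and from 7.46 to 16.6 in Ifnar1-/- libraries. None of them was called by edgeR, DESeq2, or limma-voom, although all 5 had an unadjusted p under 0.05 in edgeR, and none of the 7 was at 0 in all libraries. Cd79b, a B cell receptor chain gene, stood at 1.38 to 1.57 normalized CPM in WT and at 0.305 to 0.919 in Ifnar1-/- libraries. The Ly6g of neutrophils was at most 0.790 normalized CPM. Other neutrophil granule genes summed to between 186 and 1850 and ranged widely within both groups. Summed markers of microglia (242 to 321 against 286 to 363), plasmacytoid dendritic cells (59.3 to 74.1 against 45.0 to 60.2), and neural cells (45.1 to 61.5 against 44.6 to 51.1) overlapped between the groups. The part of other cell types in the results below was not tested.

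Tor3a and both cofactor genes were higher in WT than in Ifnar1-/- monocytes in every library, and the 4 torsins on chromosome 2 were not. Tor3a was 3.03-fold higher, Tor1aip1 1.77-fold, and Tor1aip2 1.56-fold. The 4 others lay between 0.891-fold and 1.01-fold. With edgeR's quasi-likelihood test over all genes, where a call needed an adjusted p of 0.05 or less and a 1.5-fold difference, 2 of the 7 genes were called, Tor3a and Tor1aip1, both higher in WT, against 2.13% of all tested genes in either direction, 1.67% higher in WT, and 0.462% lower. Since the family was chosen for these 2 genes, nothing is read from this count. In bulk libraries of this kind, more transcript per cell and more cells that express a gene cannot be told apart.

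**Figure D1:**
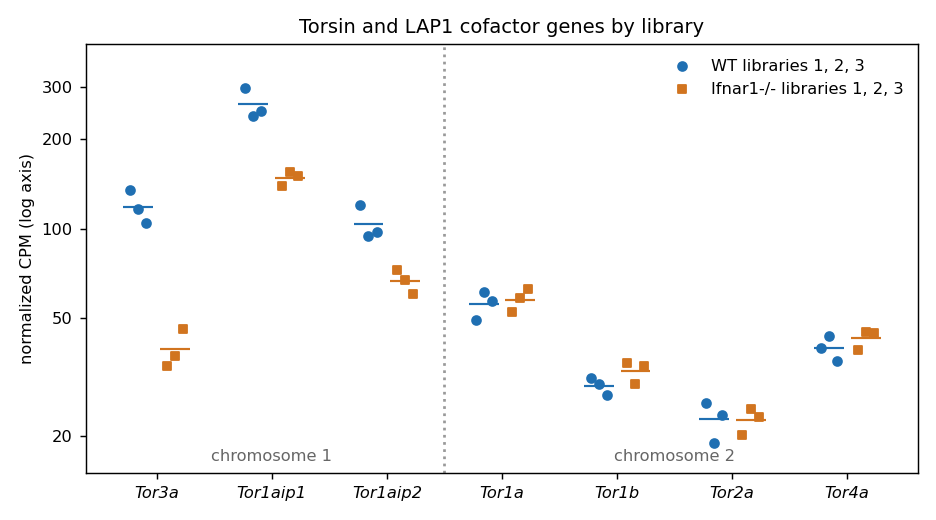
Normalized CPM (log axis) of the 7 genes in each library, with circles for WT and squares for Ifnar1-/- libraries 1 to 3 and a bar at each group mean. Groups are separate for Tor3a, Tor1aip1, and Tor1aip2 on chromosome 1 and overlap for the 4 torsins on chromosome 2.

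Tor3a encodes torsin-3A, a soluble torsin of the ER lumen. WT libraries 1, 2, and 3 gave 135, 116, and 104 normalized CPM of Tor3a, whereas Ifnar1-/- libraries 1, 2, and 3 gave 34.5, 37.1, and 45.8. The lowest WT library was thus 2.28-fold above the highest Ifnar1-/- library. WT averaged 118.5 ± 15.35 and Ifnar1-/- 39.1 ± 5.91 normalized CPM (SD, n = 3 each), or a log2 fold change of 1.60 with an SE of 0.16. This value stayed above 1 in all alternatives, from 1.38 to 1.74.

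Tor1aip1 encodes LAP1, the cofactor in the inner nuclear membrane. It measured 299, 240, and 250 normalized CPM across the WT group, while the Ifnar1-/- group gave 140, 155, and 150. All WT libraries were above all Ifnar1-/- libraries, and the Ifnar1-/- libraries lay close together. The means were 263 ± 31.6 and 148.5 ± 7.98 normalized CPM (SD, n = 3 each), with a log2 fold change of 0.83 (SE 0.15). A transcript annotated inside the range of Tor1aip1 on the same strand without exonic overlap, 9430034N14Rik, had 37.3 normalized CPM in WT and 23.7 in Ifnar1-/- monocytes, or a log2 ratio of 0.65 with an SE of 0.18 (edgeR adjusted p = 0.106).

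Tor1aip2 encodes LULL1, the cofactor in the ER. In human cells the gene also gives a short product that was described as interferon responsive, and counts of the whole gene do not separate products. It measured 120, 94.6, and 97.3 normalized CPM across the WT group, while the Ifnar1-/- group gave 72.5, 67.3, and 60.3. The groups did not overlap, which was the case for 3 of the 7 genes and for 23.4% of all tested genes (11.1% with WT above). Its means were 104 ± 14.2 and 66.7 ± 6.13 normalized CPM (SD, n = 3 each), and its log2 fold change of 0.64 (SE 0.15) missed the threshold in edgeR (adjusted p = 0.0619). In DESeq2 it passed, with a log2 fold change of 0.66 and an adjusted p of 0.0120, but not with the replicate number as a block (0.65, DESeq2 adjusted p = 0.0594), and over the alternatives the adjusted p ranged from 0.00809 to 0.676. The 3 genes were on different sides of the threshold although their groups were all separate. Tor1aip1 was the nearest member inside and Tor1aip2 the nearest outside, past 1.5-fold but with an adjusted p above 0.05.

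Of these 3 genes, WT library 1 had the highest normalized CPM each time, and it also had the highest mean log2 CPM of the 12 interferon-induced genes. In TPM this order did not hold. WT libraries 1, 2, and 3 gave 48.1, 67.6, and 48.2 TPM of Tor3a and 123.6, 156.5, and 148.2 of Tor1aip1. For Tor1aip2 they gave 34.4, 33.97, and 39.7 TPM. WT library 1 also had the highest summed T cell markers of all, 41.8 normalized CPM, and the lowest summed neutrophil markers, 186. In the Ifnar1-/- group no such order was shared in normalized CPM, since library 3 was highest for Tor3a, library 2 for Tor1aip1, and library 1 for Tor1aip2. In TPM, Ifnar1-/- library 2 was highest each time. As a scale for these differences, Irf7, an interferon-induced transcription factor gene, had 509 ± 184 normalized CPM in WT and 30.1 ± 3.75 in Ifnar1-/- monocytes (SD, n = 3 each), or a log2 ratio of 4.08 with an SE of 0.26.

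The 4 torsins on chromosome 2 had overlapping groups. Tor1a encodes torsinA, the founding member, and measured 49.4, 61.2, and 57.1 normalized CPM across the WT group, while the Ifnar1-/- group gave 52.2, 58.3, and 62.5. The log2 fold change, WT over Ifnar1-/-, came to -0.05 with an SE of 0.14 (edgeR adjusted p = 0.902). Tor1b encodes torsinB, its closest relative by sequence, and had 31.3, 29.97, and 27.4 normalized CPM in WT against 35.3, 29.99, and 34.4 in Ifnar1-/- libraries. For Tor1b it came to -0.17 with an SE of 0.15 (edgeR adjusted p = 0.591). In both neighboring genes WT and Ifnar1-/- libraries overlapped.

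Tor2a encodes torsin-2A and was the least counted member. Its values were 25.8, 18.9, and 23.5 normalized CPM in WT and 20.2, 24.6, and 23.2 in Ifnar1-/- libraries, or a log2 ratio of 0.01 with an SE of 0.18 (edgeR adjusted p = 0.982). Tor4a, the most distant torsin by sequence, had 39.6, 43.6, and 35.7 normalized CPM in WT and 39.1, 44.7, and 44.5 in Ifnar1-/- libraries. WT over Ifnar1-/-, its log2 ratio came to -0.11 with an SE of 0.14 (edgeR adjusted p = 0.729). The normal 95% intervals of the log2 fold change ran from -0.33 to 0.23 for Tor1a, from -0.45 to 0.12 for Tor1b, from -0.33 to 0.36 for Tor2a, and from -0.39 to 0.17 for Tor4a, and changes within these bounds were not distinguishable from none. With so few libraries a normal multiplier makes these intervals too narrow, so somewhat larger changes may not be distinguishable either. Of these 4 genes, 0 were called by edgeR, DESeq2, or limma-voom, against 240, 419, and 221 of all 11254 tested genes. An unadjusted p under 0.05 in edgeR was found for 0 of the 4, against 2006 of all 11254. At such shares, nothing is read from 0 of 4 genes.

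**Figure D2:**
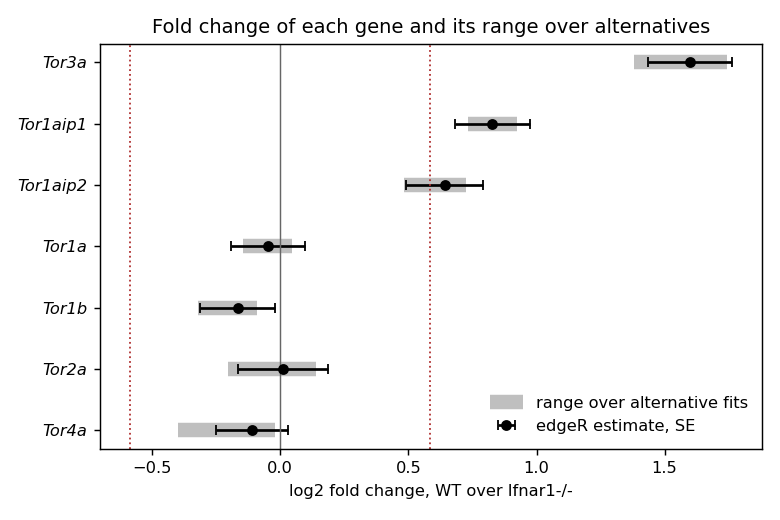
Log2 fold change of WT over Ifnar1-/- for each gene from edgeR (points, bars of 1 SE) with the range over 20 alternative fits or thresholds (gray bands), and dotted lines at a fold change of 1.5 in either direction. Tor3a lies at 1.60 and Tor1aip1 at 0.83, whereas the band of Tor1aip2 crosses the dotted line. The points of the 4 genes of chromosome 2 lie between -0.17 and 0.01, and their bands between -0.40 and 0.14.

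Levels of different genes were compared in TPM, the deposited abundance corrected for transcript length. Among the 7 genes, Tor1aip1 had the highest TPM in all WT libraries and in 2 of the 3 Ifnar1-/- libraries, with 143 ± 17.1 TPM in WT and 75.5 ± 17.1 in Ifnar1-/- monocytes (SD, n = 3 each). Tor1a was the most abundant torsin in 5 of 6 libraries, with 62.4 ± 18.2 TPM in WT and 67.5 ± 6.44 in Ifnar1-/- monocytes. In WT library 1 Tor3a had 48.1 TPM against 46.4 TPM for Tor1a. Tor3a had 54.6 ± 11.3 TPM in WT, below Tor1a in 2 of the 3 libraries, and 19.3 ± 5.03 TPM in Ifnar1-/- monocytes. Tor1aip2 had 36.02 ± 3.17 and 25.6 ± 3.57 TPM in the same order. Tor2a, Tor4a, and Tor1b stayed below 20 TPM in all libraries. In WT monocytes the order was Tor2a with 15.4 ± 1.75, Tor4a with 11.9 ± 2.73, and Tor1b with 10.6 ± 2.21 TPM. Tor4a was above Tor1b in 5 of the 6 libraries, all WT libraries among them, by less than the spread of either gene between WT libraries.

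The makeup of the torsin transcripts differed along with Tor3a. Of the summed TPM of the 5 torsins, Tor3a took 38.1%, 35.2%, and 32.9% across the WT group and 13.5%, 17.7%, and 13.9% in Ifnar1-/- libraries. Tor1a took 39.8% ± 3.04 in WT and 53.1% ± 2.77 in Ifnar1-/- monocytes (SD, n = 3 each). The ratio of Tor3a to Tor1a TPM was 1.04, 0.823, and 0.823 in WT and 0.254, 0.351, and 0.249 in Ifnar1-/- libraries. Both torsins were thus near the same level in WT monocytes, and Tor1a was above Tor3a in every Ifnar1-/- library.

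**Figure D3:**
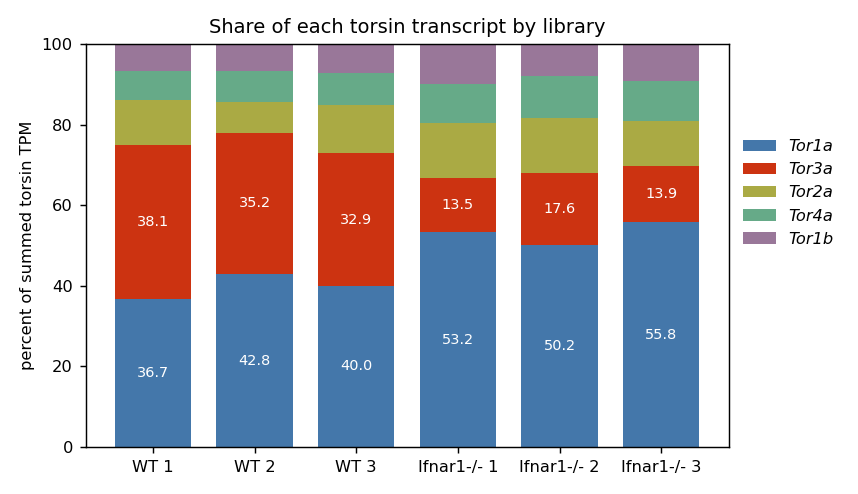
Percent of the summed TPM of the 5 torsins taken by each gene in each library, with the shares of Tor1a and Tor3a printed on the bars. Tor3a holds more than 30% in all WT libraries and less than 20% in all Ifnar1-/- libraries, and the shares of Tor1a, Tor1b, and Tor4a are larger in each Ifnar1-/- library, where shares of 1 sum depend on each other.

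Without Tor3a, the other 4 torsins summed to 100 ± 23.2 TPM in WT and 108 ± 9.61 TPM in Ifnar1-/- monocytes (SD, n = 3 each), with overlapping groups. With Tor3a, the sum was 155 ± 33.7 and 127 ± 14.3 TPM, and the groups overlapped as well, since WT library 1 with 126 TPM lay below 2 Ifnar1-/- libraries. The cofactors summed to 179 ± 18.0 TPM in WT and 101 ± 20.2 TPM in Ifnar1-/- monocytes, without overlap. Cofactor over torsin TPM was 1.25, 0.992, and 1.28 across the WT group and 0.765, 0.879, and 0.726 in Ifnar1-/- libraries. Tor1aip1 was above Tor1aip2 in every library, by 3.59-fold to 4.61-fold in WT and by 2.50-fold to 3.20-fold in Ifnar1-/- libraries. These ratios contain the genes that the family was chosen for and are a description.

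Use of the annotated transcripts was measured by the length that RSEM reports for a gene, which is the mean over its transcripts weighted by their estimated abundance, and which was not used to choose the family. The number of annotated transcripts was 8 for Tor3a, 10 for Tor1aip1, 9 for Tor1aip2, 5 for Tor1a, 7 for Tor1b, 8 for Tor2a, and 3 for Tor4a. The length of Tor1aip2 was 2672, 3051, and 2714 bases in WT and 2733, 2478, and 2512 bases in Ifnar1-/- libraries. For Tor1aip1 the order of the means was the opposite, with 1910, 1772, and 1931 bases in WT and 2146, 1839, and 2044 bases in Ifnar1-/- libraries. Tor3a had 2187 ± 228 bases in WT and 2087 ± 378 in Ifnar1-/- monocytes (SD, n = 3 each), and the Ifnar1-/- libraries spread from 1684 to 2434 bases. All groups overlapped: lengths of WT and Ifnar1-/- libraries were separate for 0 of the 6 genes whose length varied by more than 1 base. Among all tested genes with such variation the share was 10.6%. Tor4a had the same length in every library and could not be separate. In two-sided exact permutation tests of the 6 genes whose length varied, the lowest p was 0.3, for Tor1aip1 and Tor1aip2 (n = 3 each, adjusted p = 0.7 for all 6), and the smallest p that 3 libraries against 3 allow is 0.1. A shift in transcript use was therefore not detectable, and the design could not have reached 0.05.

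**Figure D4:**
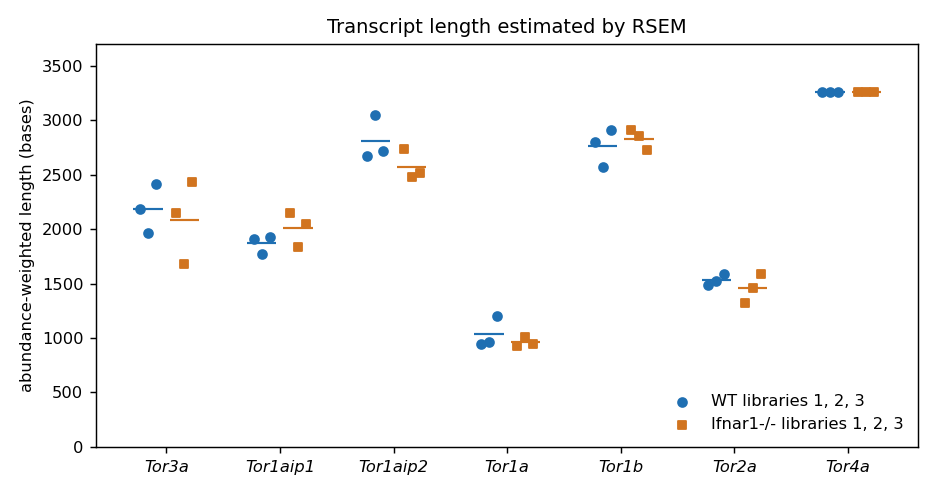
Abundance-weighted transcript length in bases for each gene and library, with circles for WT, squares for Ifnar1-/-, and bars at group means. WT and Ifnar1-/- libraries overlap for every gene, also for Tor3a with 2187 against 2087 bases on average.

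The members near Ptprc were compared with those elsewhere because WT and Ifnar1-/- cells came from donors with different CD45 variants. The 3 genes within 20 Mb of Ptprc had log2 fold changes from 0.64 to 1.60 with a median of 0.83, and 2 of them were called. The 4 genes on chromosome 2 had a median of -0.08 and a range from -0.17 to 0.01, and 0 were called. Among all 164 tested genes within 20 Mb of Ptprc, 6.1% were called in either direction and 4.27% higher in WT, with the median log2 ratio at -0.06. Of these 164 genes, 73 were higher in WT. Beyond 20 Mb the share was 2.07% of 11090 genes with a median of -0.01, and on chromosome 2 it was 1.39% of 864 genes. The 2 called members are those that the family was chosen for, so nothing is read from their share. Ptprc itself had 638 ± 28.6 and 626 ± 42.8 normalized CPM in WT and Ifnar1-/- monocytes (SD, n = 3 each), or a log2 ratio of 0.03 with an SE of 0.14 (edgeR adjusted p = 0.950). With 3 genes against 4, which are not replicates of a location, no test of the difference was made. Receptor genotype and donor origin cannot be told apart for any gene, near Ptprc or elsewhere.

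**Figure D5:**
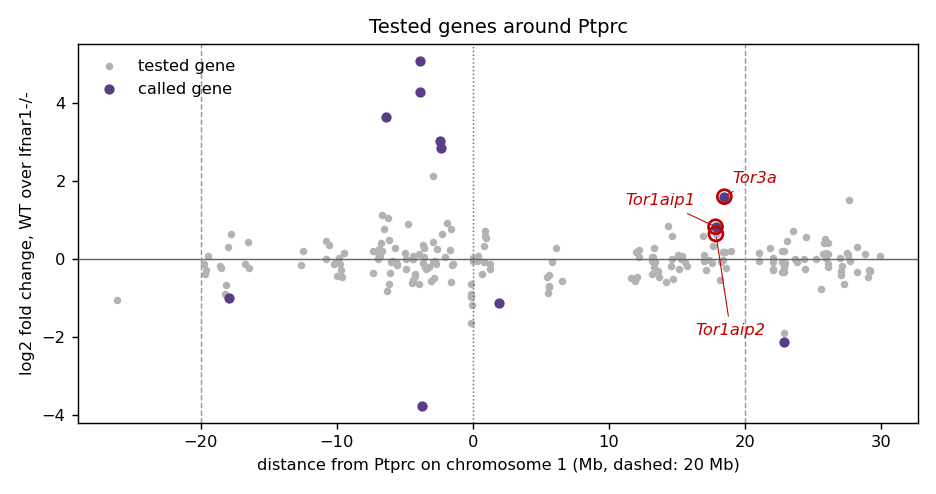
Log2 fold change of WT over Ifnar1-/- for tested genes within 30 Mb of Ptprc, by distance on chromosome 1, with called genes in purple, the 3 torsin family genes circled in red, and dashed lines at 20 Mb. The 3 circled genes lie 17.8 to 18.5 Mb distal to Ptprc between 0.64 and 1.60, and the 16 other tested genes within 1 Mb of their interval lie between -0.55 and 0.65.

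The window was then narrowed to 1 Mb on either side of the interval from Tor1aip1 to Tor3a. It held 16 other tested genes, of which 8 were higher and 8 lower in WT, with log2 ratios between -0.55 and 0.65 around a median of 0.03. None of the 16 was called by edgeR or limma-voom, 3 had an unadjusted p under 0.05 in edgeR, against 2006 of all 11254 tested genes, and 1, Ier5, was called by DESeq2, against 419 of 11254. The groups did not overlap for 4 of them, Ier5, 9430034N14Rik, Xpr1, and Gm2000, which were named after their values were seen, against 23.4% of all tested genes. Ier5, an immediate early gene, had 205 normalized CPM in WT and 135 in Ifnar1-/- monocytes, and Xpr1, a phosphate exporter gene, had 91.0 and 111. Between the cofactors and Tor3a, 585 kb apart, Soat1 had 348 and 365 normalized CPM with a log2 fold change of -0.07, and Abl2, next to Tor3a, had 75.2 and 66.4 with a log2 fold change of 0.18. On the other side of Tor3a, Fam20b had 52.7 and 46.6 normalized CPM and a log2 fold change of 0.18. Soat1, Abl2, and Fam20b were named for their position.

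Promoter windows, from 250 bases before to 50 bases after a transcript start, were taken from RefSeq (GRCm38.p6) and covered 5 of the 7 genes with 10 windows. Tor3a and Tor1b had no window in this table. The ISRE core, an element of interferon-induced promoters that was searched as GAAA, any 2 bases, and GAAA again, was in 0 of the 10 windows on either strand and in 3.44% of all 32851 windows. The GAS core TTCNNNGAA, which reads the same on both strands, was in 2 of the 10 windows and in 8.3% of all windows. Both windows belong to Tor1aip2 and share 1 match at chromosome 1, 156040779 to 156040787, 61 and 82 bases before the 2 start sites. A match is a description of letters in a window and does not show binding. The 250 bases before the first of these start sites, chr1:156040590-156040839 on the plus strand, overlap no annotated exon and are shown with the match in capitals because this is the only GAS match in the windows of these genes.
Tor1aip2: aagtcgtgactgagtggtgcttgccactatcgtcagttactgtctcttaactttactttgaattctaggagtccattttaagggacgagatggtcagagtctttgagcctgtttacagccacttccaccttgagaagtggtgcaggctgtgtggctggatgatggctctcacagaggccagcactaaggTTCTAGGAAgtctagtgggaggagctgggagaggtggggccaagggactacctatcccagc

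Genes of the compartment in which torsins act were described as lists. Beside their counts of calls, edgeR, DESeq2, and limma-voom called 240, 419, and 221 of all 11254 tested genes. The first held 18 genes of the nuclear envelope, lamina, and LINC complex, which joins the nucleus to the cytoskeleton. All 18 were tested, 0 were called by edgeR, DESeq2, or limma-voom, 3 had an unadjusted p under 0.05 in edgeR with values higher in WT (2006 of all 11254 genes had one, 1090 of them higher), and the median log2 fold change was 0.10, against -0.01 over all tested genes. The smallest p-values were those of Syne3, the gene of nesprin-3, with 21.5 ± 6.82 and 14.2 ± 1.03 normalized CPM in WT and Ifnar1-/- monocytes (SD, n = 3 each; log2 fold change 0.61, adjusted p = 0.207 from edgeR), and Sun2, a SUN domain gene of the inner nuclear membrane, with 174 ± 22.2 and 118 ± 36.3 (log2 fold change 0.56, adjusted p = 0.218).

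Nuclear pores, whose assembly at the nuclear envelope is disturbed without torsins, were covered by a list of 28 genes. The 28 include Mlf2, which is not a pore component. All were tested and 0 were called by edgeR or limma-voom. The median log2 fold change was -0.19, with 11 of 28 higher in WT, and 8 genes had an unadjusted p under 0.05 in edgeR, 1 of them higher and 7 lower in WT. Over all 11254 genes these numbers were 2006, 1090, and 916. The groups did not overlap for 12 of the 28, against 23.4% of all tested genes. Pom121, a pore membrane protein gene, had 59.4 ± 13.8 normalized CPM in WT and 36.1 ± 3.596 in Ifnar1-/- monocytes (SD, n = 3 each; log2 fold change 0.72, adjusted p = 0.0789 from edgeR), and was called by DESeq2. Rae1, an mRNA export gene, had 14.2 ± 2.26 and 23.1 ± 2.80 (log2 fold change -0.70, adjusted p = 0.0987 from edgeR). The lipins and their phosphatase complex, which torsins are known to affect, had 4 of 5 genes tested, 0 called by edgeR, DESeq2, or limma-voom, 0 with an unadjusted p under 0.05, and a median log2 fold change of 0.14. Lpin3 was at 0 counts in all libraries. In that list, Lpin2 (log2 fold change 0.21, adjusted p = 0.432) and Cnep1r1 (-0.35, adjusted p = 0.559, both from edgeR) had the smallest p-values.

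Genes with the pattern most like that of Tor3a and Tor1aip1 were found by Pearson's r of log2 normalized CPM over the 6 libraries among tested genes. Those nearest to Tor3a were Usp18 (r = 0.996), Trim34a (r = 0.995), and Nectin4 (r = 0.994). For Tor1aip1 they were Dck (r = 0.9999), Zfp768 (r = 0.998), and Oasl2 (r = 0.998). With 6 points that fall into 2 separate groups, such values mostly follow the difference between genotypes and carry no test. Their sizes differed widely, since Usp18 had a log2 fold change of 4.09 and Zfp768 of 0.68 (adjusted p = 0.198 from edgeR).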

How the data were processed

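RNA-seq of sorted CNS monocytes from IFN-β-treated WT/Ifnar1-/- mixed BM chimera mice was analyzed in 3 WT and 3 Ifnar1-/- libraries, grouped by the sample titles. The deposited files carry a further number per replicate that the labels do not explain. The authors prepared stranded total RNA libraries, sequenced them as read pairs, and used RSEM on GRCm38. RSEM 1.2.31 and STAR 2.6.0c are named in the submitters' processing notes. The GEO labels name a SMARTer kit and the published methods a TruSeq kit. The deposited expected counts are estimates without normalization. By contrast, TPM as deposited is corrected for transcript length and depth. The deposited transcript and effective lengths are in bases and weighted by isoform abundance.

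Of the 54232 gene identifiers, 54165 matched GENCODE M21. Expected counts were rounded and tested with edgeR 4.0.16 in R 4.3.3 (TMM, filterByExpr with a minimum count of 10, quasi-likelihood test, Benjamini-Hochberg adjustment over 11254 genes, no block). Normalized CPM used TMM-adjusted library sizes, and log2 CPM a prior of 0.5. The SE of a log2 fold change was its absolute value over the square root of the quasi-likelihood F statistic. Alternatives were DESeq2 1.42.0, RLE, other filters, limma-voom (limma 3.58.1), limma on log2(TPM + 1), an adjusted p alone, a replicate block, leaving out mitochondrial and ribosomal RNA genes, GC and length offsets, and leaving out each library. Fold change thresholds of 1.3 and 2 were added after seeing the data. Lengths were compared with exact permutation tests in SciPy 1.17.1. Proteins were aligned with Biopython 1.88 (BLOSUM62), and the percentages are of the shorter protein.

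The genes of the family, the lists, and the tests were chosen with earlier results of these data known. Genes named are the 7 members, the 2 smallest p-values per list, the 3 genes most like Tor3a or Tor1aip1, reference genes, and neighbors within 1 Mb called by edgeR, of which there were none. Exceptions are stated in the text. The values of 1 marker list are not reported here. Depth sets the precision of a single count, and intervals cover the spread between libraries.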

Additional observations from a re-analysis of the deposited data

How the results depend on the processing

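Of the 7 genes, Tor3a kept its direction and its call in all 20 alternatives, and its log2 fold change ranged from 1.51 to 1.74 over the fits that left out 1 library. Among the 20, the adjusted p alone and the 1.3-fold and 2-fold thresholds reuse the main fit. By construction they cannot change a direction, and only the 2-fold threshold can remove a call. Tor1aip1 kept its direction in all 20 (0.73 to 0.93) and lost its call in 4: on log2(TPM + 1) with limma (0.93), without Ifnar1-/- library 1 (0.80), without Ifnar1-/- library 3 (0.85), and, by construction, at a 2-fold threshold. In each of these 1 member was called in place of 2, and 1 of the members near Ptprc, and over the fits without 1 library both numbers ranged from 1 to 2. Tor1aip2 was called, besides DESeq2, without a filter on low counts (0.64, adjusted p = 0.00809) and with GC and length offsets and the replicate block (0.63, adjusted p = 0.0342). The direction of Tor2a, uncalled throughout, reversed on log2(TPM + 1) (-0.077), without WT library 1 (-0.084), without Ifnar1-/- library 1 (-0.05), with GC and length offsets (-0.20), and with these offsets and the replicate block (-0.20), and reached 0.14 without WT library 2. That of Tor1a, also uncalled, reversed without WT library 1 (0.045) and without Ifnar1-/- library 3 (0.031), and was -0.11 without WT library 2. Tor4a and Tor1b kept their direction and stayed uncalled. With GC and length offsets they moved to -0.395 and -0.32, and with the replicate block added to -0.400 and -0.32. Both values of Tor4a lie below its interval from the main fit. The cause was not tested.

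All tested genes gave 240 calls (188 higher and 52 lower in WT), with 419 (314 and 105) in DESeq2, 872 (610 and 262) without a filter on low counts, and 128 (112 and 16) on log2(TPM + 1). GC and length offsets gave 32 lower calls and a 2-fold threshold 18. Without 1 library, calls ranged from 119 to 245, with 110 to 204 higher and 7 to 41 lower. The lowest were those without Ifnar1-/- library 1 (119), Ifnar1-/- library 3 (120), and WT library 3 (148). Called genes of the nuclear pore list rose from 0 to 1 in DESeq2, to 2 without a filter, and ranged from 0 to 1 without 1 library. Windows of 10 or 15 Mb around Ptprc held 0 called members, since all 3 lie beyond 15 Mb. With effective length in place of length, groups were separate for 1 member, Tor4a (exact permutation p = 0.1), against 16.2% of genes whose length varied. Its effective length was 3060, 3056, and 3050 bases in WT and 3081, 3070, and 3082 bases in Ifnar1-/- libraries. The length of Tor4a was 3255 bases in every library, so this separation does not measure transcript use. Effective length also depends on the fragment lengths of a library, which were not examined. With the replicate number as a block, 2 members and 220 genes were called. Same-numbered libraries deviated from their groups with correlations of 0.0974, 0.0213, and 0.232. Differently numbered libraries had correlations from -0.172 to 0.0662. These values do not settle whether the numbers pair the libraries, so fits without and with the block are both given. No member's call changed under the block in edgeR. In DESeq2, Tor1aip2 was called without the block (0.66, adjusted p = 0.0120) and not with it (0.65, adjusted p = 0.0594). Both genotypes came from the same 3 recipients, but the numbers were not tied to mice. With 3 libraries per group and member counts from 89 to 2104, small differences in the members may have been missed.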
